A study of Mus musculus with 2 samples.

Results

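Megakaryocytes are large, polyploid cells of the bone marrow and other blood-forming sites that shed platelets into the blood. They make the contents of platelet granules, such as the chemokines platelet factor 4 (Pf4) and pro-platelet basic protein (Ppbp), and the adhesion receptors by which platelets bind a wounded vessel wall. The cells described here were taken from single-cell RNA sequencing of mouse knee joints by a marker rule. A member had at least 500 genes, at least 1000 UMIs (unique molecular identifiers, counted RNA molecules) and at most 10% mitochondrial UMIs. It also had at least 1 UMI of at least 2 of Ppbp, Pf4, Itga2b, Gp9 and Ctla2a, and 0 UMIs of C1qa (a macrophage gene), Cd79a (a B cell gene) and Pdgfra (a fibroblast gene). The rule took 134 of 15174 cells that passed the filters, or 0.883% (95% exact binomial interval 0.740 to 1.05). Members were thus chosen by the measured UMI counts of these 8 genes. Their levels and those of every gene compared with other cells are therefore given as descriptions, without a test.

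The joints were hindlimb knees of mice of both sexes at postnatal day 7. One group, labelled Col12 WT, carried the wild-type Col12a1 gene, which encodes collagen XII, a collagen on the surface of fibrils. The other was a Col12a1 knockout. Joints of both were digested with collagenase II at 4 mg/mL for 6 h, and droplet libraries came from 2 experiments, the first with 1 library of each genotype and the second with 2. The cells stand in 1 merged matrix whose barcodes end in 1 or 2, here called barcode sets 1 and 2. No label ties an ending to a genotype or an experiment, so the matrix was treated as 1 sample and wild type was not compared with knockout. Set 1 held 71 members among 7160 cells (0.992%, 0.775 to 1.25) and set 2 held 63 among 8014 (0.786%, 0.605 to 1.00). These intervals overlapped. Both sets shared 40 barcode sequences. Every interval given is a 95% interval of counting error alone, because cells are not replicates.

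Members were deeply counted. Their median was 20850.5 UMIs (1229 to 176797) and 4415.5 genes, against 10110 UMIs and 2723 genes in the other cells. When each cell was thinned to 2000 UMIs, the same rule took 31 cells. Among cells with the 3 excluded genes at 0, 7627 had none of the 5 genes, 955 had 1, 102 had 2, 14 had 3, 8 had 4 and 10 had all 5.

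The label of the group, megakaryocyte lineage, was checked against genes that the rule did not use. It held for some of the members only. Members fell into 3 bodies of cells: 18 with Pf4 at 3901 CPM or over (UMI counts per 1000000 UMIs) and platelet receptor genes, 30 of the same cluster with little Pf4 and with progenitor genes, and 34 of an endothelial-like cluster. The remaining 52 members were spread over 21 clusters. The separation at 1000 CPM of Pf4 was chosen after the values were seen.

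The 4 blood-platelet genes of the rule and their promoters are shown because these genes chose the cells. Pf4 (ENSMUSG00000029373, 5:90772435-90773383, plus strand) and Ppbp (ENSMUSG00000029372, 5:90768518-90770063, plus strand) are neighbouring chemokine genes. Itga2b (ENSMUSG00000034664, 11:102453297-102470122, minus strand) encodes the alpha chain of the platelet fibrinogen receptor. Gp9 (ENSMUSG00000030054, 6:87778072-87779768, plus strand) encodes a subunit of the receptor for von Willebrand factor. Ctla2a (ENSMUSG00000044258, 13:60934155-60936625, minus strand), a protein akin to the propeptide of cysteine proteases, overlaps 2 other annotated genes on its own strand, so that reads there could belong to either. Gene positions are from GENCODE M21 on mm10. The promoter windows below are from RefSeq on GRCm38.p6, run 5′ to 3′ on the gene's strand from 250 bases before to 50 after the start, and lie at chr5:90772185-90772484 (plus), chr5:90768268-90768567 (plus), chr6:87777820-87778119 (plus) and chr11:102469834-102470133 (minus). Capitals mark AGATAA, a motif read by GATA factors, and GGAAG, the core of an ETS factor motif, on either strand (TTATCT and CTTCC on the other).
Pf4: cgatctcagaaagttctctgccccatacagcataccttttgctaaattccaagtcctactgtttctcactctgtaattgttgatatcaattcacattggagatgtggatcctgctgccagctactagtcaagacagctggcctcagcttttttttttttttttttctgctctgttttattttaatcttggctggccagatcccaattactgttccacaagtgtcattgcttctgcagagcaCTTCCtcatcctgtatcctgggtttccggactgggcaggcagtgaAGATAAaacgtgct
Ppbp: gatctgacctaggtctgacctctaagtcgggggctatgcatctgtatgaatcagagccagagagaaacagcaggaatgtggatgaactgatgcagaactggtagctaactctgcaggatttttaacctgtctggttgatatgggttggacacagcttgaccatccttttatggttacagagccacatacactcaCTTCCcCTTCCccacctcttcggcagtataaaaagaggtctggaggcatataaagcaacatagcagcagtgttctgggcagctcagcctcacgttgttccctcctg
Gp9: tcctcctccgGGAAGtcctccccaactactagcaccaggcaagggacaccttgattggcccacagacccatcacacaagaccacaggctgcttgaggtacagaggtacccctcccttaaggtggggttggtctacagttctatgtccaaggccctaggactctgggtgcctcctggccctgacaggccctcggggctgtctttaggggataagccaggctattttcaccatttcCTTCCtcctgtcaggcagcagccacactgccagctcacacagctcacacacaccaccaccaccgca
Itga2b: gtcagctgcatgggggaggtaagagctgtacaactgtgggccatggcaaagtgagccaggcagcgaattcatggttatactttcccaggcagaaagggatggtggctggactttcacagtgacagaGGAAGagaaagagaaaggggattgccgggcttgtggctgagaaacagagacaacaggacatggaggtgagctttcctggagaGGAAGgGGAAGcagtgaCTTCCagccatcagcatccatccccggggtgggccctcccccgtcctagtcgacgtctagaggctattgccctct
The Pf4 window held 1 AGATAA and 1 GGAAG match. The Ppbp, Gp9 and Itga2b windows held 2, 2 and 4 matches of GGAAG and none of AGATAA. Of 32851 mouse promoter windows of this length, 11.2% held AGATAA, 71.4% held GGAAG and 7.42% held both, so a GGAAG match is common to most genes. These matches describe letters only.

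Which genes admitted a cell differed between members. Ctla2a was present in 103 members, Pf4 in 85, Itga2b in 80, Gp9 in 32 and Ppbp in 28. Of the 102 members with exactly 2 genes, 73 rested on Ctla2a as 1 of them, and 61 of all members had 2 genes without it. Pf4 with Ctla2a was the commonest pair (34 cells, 18 of them endothelial-like), followed by Itga2b with Ctla2a (31 cells) and Pf4 with Itga2b (17 cells, all outside both main clusters). Many entries rested on a single molecule: 44 of the 85 members with Pf4 had 1 UMI of it, and 56 of the 80 with Itga2b had 1.

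Clustering without the 8 rule genes placed 48 members (35.8%, 27.7 to 44.6) in a cluster of 443 cells led by Ppbp, Car1 and Pf4. That cluster stayed unnamed, since no marker list met the naming rule without a competing list. The 394 cells of it with fewer than 2 rule genes were led by Car1, Mcpt8, Ctla2a and Prss34 (Mcpt8 and Prss34 are basophil proteases), so the names Ppbp and Pf4 come from the members and 1 cell left out by the rule, and the cluster as a whole is not described by them. Members made up 10.8% of it (8.10 to 14.1), 30 in set 1 and 18 in set 2. The endothelial-like cluster of 243 cells held 34 members (25.4%, 18.3 to 33.6), 16 in set 1 and 18 in set 2. Of the others, 8 were granulocyte progenitor-like, 7 mast-like, 7 erythroid-like and 5 fibroblast-like. At a finer resolution the Ppbp-Car1-Pf4 cluster was divided, and the largest share of members in 1 cluster was 26.1%.

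**Figure D1:**
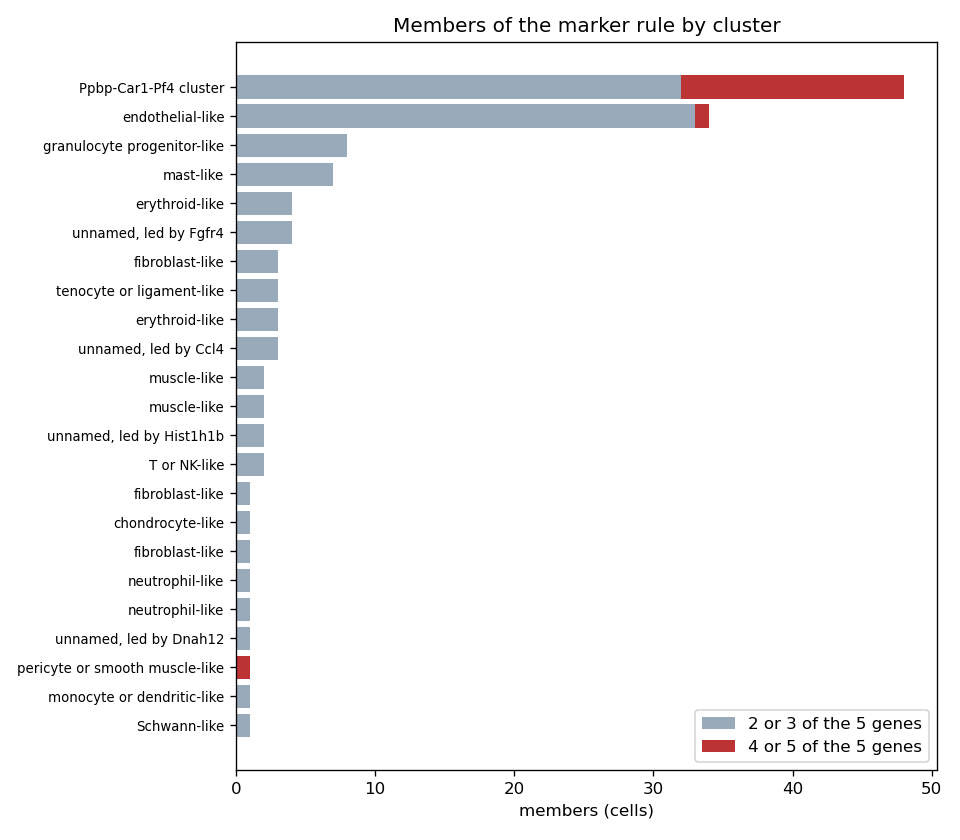
Members per cluster (x axis, cells), clusters ordered by their number of members, coloured by how many of the 5 rule genes a cell had. The cluster led by Ppbp, Car1 and Pf4 has 48 members and the endothelial-like cluster 34, and 16 of the 18 cells with 4 or 5 genes lie in the first.

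The 18 cells with high Pf4, called Pf4-high below, lay in the Ppbp-Car1-Pf4 cluster, 12 in set 1 and 6 in set 2. Their Pf4 level ran from 3901 to 87719 CPM with a median of 19705. The next member of that cluster had 271 CPM, so that no member of it lay between these values. Outside it, 1 member passed 1000 CPM, a muscle-like cell of 1251 UMIs at 4796 CPM. The Pf4-high cells held 7519 of the 7664 Pf4 UMIs of all members (98.1%). Of their 401074 UMIs of all genes, 375797 came from 8 cells with 12903 UMIs or more. The summed levels of Pf4-high cells given below therefore rest mostly on these 8. The other 30 members of the cluster, called Pf4-low, ran from 0 to 271 CPM, 18 in set 1 and 12 in set 2.

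**Figure D2:**
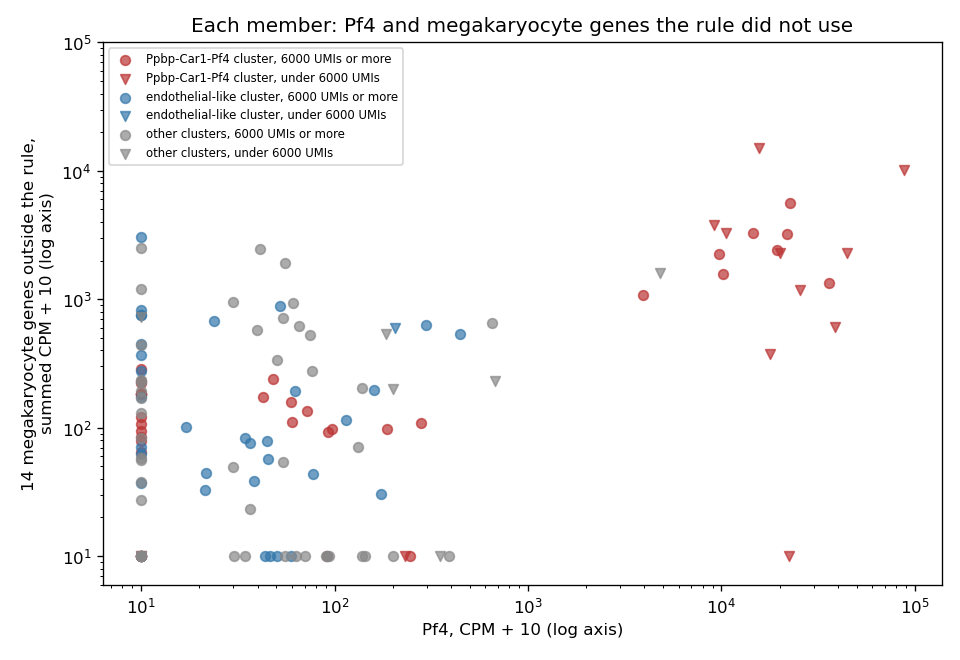
Each point is 1 member: Pf4 (x axis, CPM + 10, log) against the summed level of 14 megakaryocyte genes that the rule did not use (y axis, CPM + 10, log), coloured by cluster, with a value of 0 drawn at 10. The Pf4-high cells lie on the right at 3901 CPM or more, where 1 muscle-like member at 4796 CPM also lies. The Pf4-low and endothelial-like members lie to the left, with 0 to 271 CPM for the former.

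Genes outside the rule separated these groups as well. The 14 megakaryocyte markers not used by the rule (among them Treml1, Clec1b, Itgb3, Vwf and Rab27b) summed to 3391 CPM (3213 to 3576) in Pf4-high cells and 102 CPM (79.9 to 128) in Pf4-low cells. By cell, the lowest, median and highest sums were 0, 2274 and 15110 CPM in the former and 0, 92.1 and 274 CPM in the latter. The medians were far apart, although the ranges overlapped at their low ends: 1 Pf4-high cell of 2760 UMIs held none of these markers. In the cells outside the members the same list summed to 678 CPM (674 to 681), more than in Pf4-low cells and than the 567 CPM of all members together. Thbs1, a matrix protein also made by connective tissue, gave most of that: without it the list came to 3039 CPM (2871 to 3215) in Pf4-high cells, 92.2 CPM (71.3 to 117) in Pf4-low cells and 91.1 CPM (89.8 to 92.3) in cells outside the members. The Pf4-low cells were thus at the level of the other cells on the list without Thbs1. With Thbs1 kept, neutrophil-like cells outside the members had 5103 CPM (5063 to 5144), more than the Pf4-high cells. Fibroblast-like and chondrocyte-like cells outside the members had 550 and 429 CPM. By set, Pf4-high cells had 3824 CPM in set 1, against 2609 CPM in set 2, and Pf4-low cells 109 and 91.5 CPM.

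Granule cargo came first. The rule genes Pf4 and Ppbp stood at 18747 CPM (18326 to 19176) and 583 CPM (511 to 663) in Pf4-high cells. Pf4-low cells had 36.3 and 2.79 CPM. Per cell, the lowest, median and highest Ppbp counts among the 18 were 0, 4.00 and 111 UMIs, and 1 cell gave 111 of them. Von Willebrand factor (Vwf), which tethers platelets to collagen, was at 379 CPM (321 to 444) in Pf4-high cells, where 8 of 18 held a UMI, and at 1.40 CPM in Pf4-low cells. By set, Pf4-high cells had 488 CPM of Vwf in set 1 and 182 CPM in set 2. The granule protein multimerin (Mmrn1) followed with 157 against 8.38 CPM, and coagulation factor V (F5) with 122 against 1.40 CPM. Thrombospondin 1 (Thbs1) was at 527 CPM in the Pf4-high cells of set 1 and 34.97 CPM in those of set 2, with 54.6% of its UMIs from 1 cell. Serglycin (Srgn), the proteoglycan of granules in many blood cells, was lower in Pf4-high (466 CPM) than in Pf4-low cells (891 CPM). Cargo was thus not uniformly high in the Pf4-high cells: Lgals1 was at 2.49 CPM there, in 1 cell, and at 610.5 CPM in Pf4-low cells.

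Surface receptors of platelets were higher in Pf4-high than in Pf4-low cells. Without the rule genes they summed to 3997 CPM (3803 to 4197) in Pf4-high and 455 CPM (407 to 508) in Pf4-low cells. Cells outside the members had 1215 CPM, and neutrophil-like cells among them 2721 CPM. Treml1, a receptor stored in alpha granules, was at 244 CPM (198 to 298) against 5.59 CPM, with 11 of 18 and 3 of 30 cells holding a UMI. In Pf4-high cells it was at 240.2 CPM in set 1, against 252 CPM in set 2. Clec1b, the receptor for podoplanin, was at 232 against 1.40 CPM. F2rl2, a thrombin receptor that acts as a cofactor on mouse platelets, was at 244 against 1.40 CPM, and the ATP-gated channel P2rx1 at 109.7 against 5.59 CPM. These genes were at or near 0 in most Pf4-low cells.

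The receptor complexes were covered unevenly. Of the von Willebrand factor receptor, Gp5 was at 112 CPM, Gp1bb at 69.8 and Gp1ba at 17.5 CPM in Pf4-high cells, against 4.19, 4.19 and 1.40 in Pf4-low cells. Of the 18 Pf4-high cells, 8, 6 and 2 held a UMI of them. A single cell gave 55.6%, 46.4% and 71.4% of these UMIs. Gp1bb overlaps Sept5 on the same strand. Itgb3, the beta chain that pairs with Itga2b, was at 506 CPM (439 to 581) against 9.78 CPM. The tetraspanin Cd9 was at 778 against 68.5 CPM. Slamf1 (CD150), a receptor of stem cells and megakaryocyte progenitors, was at 249 CPM in Pf4-high and 78.2 CPM in Pf4-low cells, both above the 2.78 CPM of cells outside the members.

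Genes that build and release granules followed the receptors. Rab27b, a small GTPase of granule secretion, was at 1169 CPM (1066 to 1280.1) in Pf4-high cells (16 of 18 with a UMI) and 26.5 CPM (15.98 to 41.4) in Pf4-low cells. Slc35d3, needed for platelet dense granules, was at 124.7 against 2.79 CPM. Rab38, which works in the making of these granules, differed less, at 94.7 against 43.3 CPM. The vesicular monoamine transporter Slc18a2 did not follow them, at 19.9 against 30.7 CPM. Rab27b was not particular to these cells, as mast-like cells outside the members had 1153 CPM. The granule biogenesis list summed to 2316 CPM in Pf4-high and 571 CPM in Pf4-low cells. It was at 1920 CPM in neutrophil-like cells outside the members and 426 CPM in all cells outside the members.

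**Figure D3:**
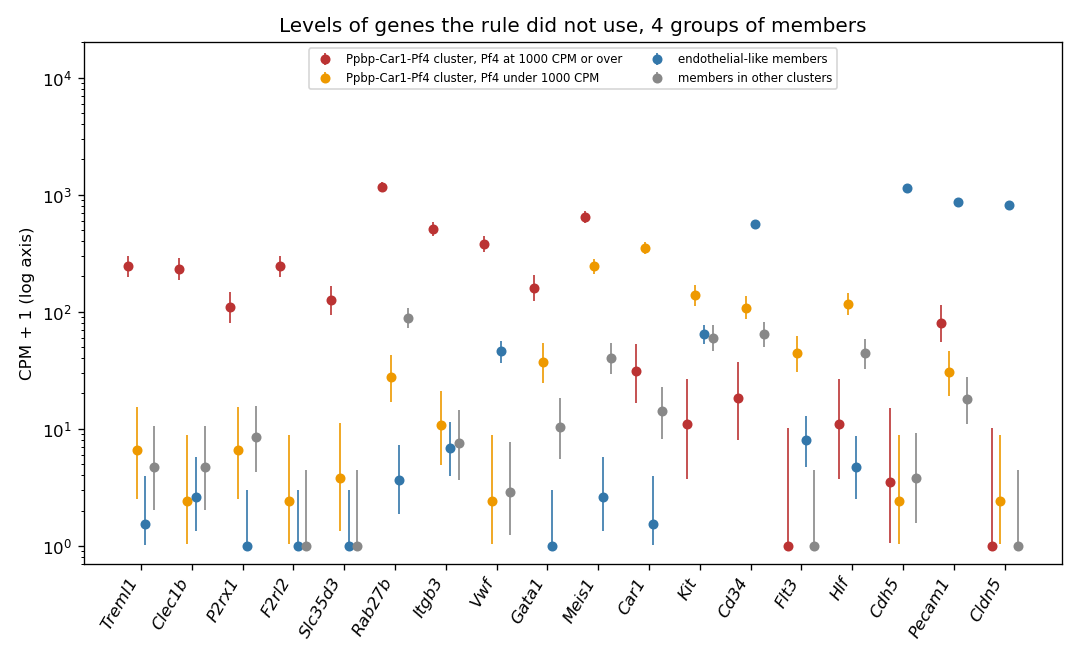
Levels (y axis, CPM + 1, log) of 18 genes that the rule did not use, in 4 groups of members. Points are UMIs summed over the group per 1000000 and bars are 95% exact Poisson intervals. Platelet genes from Treml1 to Vwf are highest in the Pf4-high cells, Kit, Flt3 and Hlf in the Pf4-low cells, and Cdh5, Pecam1 and Cldn5 in the endothelial-like members.

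Cytoskeletal and signalling genes were also higher in Pf4-high than in Pf4-low cells. Cytoskeletal and proplatelet genes summed to 6261 CPM (6018 to 6510.5) against 1249 CPM (1168 to 1334). Cells outside the members had 2425 CPM, and neutrophil-like cells among them 3360 CPM. Fermt3 (kindlin-3), which switches integrins on, was at 828 against 148 CPM, talin 1 (Tln1) at 803 against 149 and the myosin light chain kinase Mylk at 287 against 1.40 CPM. Tubb1, the beta-tubulin of the platelet's marginal band, was low even in Pf4-high cells, at 7.48 CPM (1.54 to 21.9).

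Platelet signalling genes summed to 9469.6 CPM (9171 to 9776) against 1845 CPM (1747 to 1948). Outside the members the list was at 1586 CPM in all cells and 4762 CPM in neutrophil-like cells. Rap1b, the GTPase upstream of integrin activation, was at 2371 CPM (2223 to 2527) against 166 CPM, and 17 of the 18 cells held a UMI. Its exchange factor Rasgrp2 was at 541 against 75.4 CPM, pleckstrin (Plek) at 1222 against 138 CPM, Rgs18 at 745 against 112 CPM and the adaptor Lat at 212 against 15.4 CPM. The 12-lipoxygenase Alox12 reached 152 CPM in 5 Pf4-high cells and 0 in Pf4-low cells, with 68.9% of its UMIs from 1 cell.

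Transcription factors parted into those shared by both groups and those of 1 group. Gata1, the factor that drives megakaryocyte and erythroid maturation, was at 159.6 CPM (123 to 204) against 36.3 CPM (23.7 to 53.2). Its cofactor Zfpm1 was at 531 against 89.4 CPM. Mef2c was at 1204 against 379 and Meis1 at 646 against 243 CPM. By cell, Meis1 ran against its sum. It was found in 8 of 18 Pf4-high cells (median 0 CPM) and 22 of 30 Pf4-low cells (median 163 CPM). Gata2, a factor of early progenitors, was lower in Pf4-high cells, at 77.3 against 112 CPM, as were Mecom (19.9 against 134), Myb (9.97 against 159) and Ikzf2 (64.8 against 149 CPM).

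Some genes of blood progenitors were higher in Pf4-low than in Pf4-high cells. Kit, the receptor for stem cell factor, was found in 27 of the 30 at 137 CPM (111 to 167), and in 3 of the 18 Pf4-high cells at 9.97 CPM (2.72 to 25.5). In Pf4-low cells it was at 146 CPM in set 1, against 123 CPM in set 2. Flt3, a receptor of early lymphoid and myeloid progenitors, was at 43.3 CPM in 10 Pf4-low cells and at 0 UMIs in Pf4-high cells. Hlf, a transcription factor of blood stem cells, was at 116 against 9.97 CPM in Pf4-high cells, Cd34 at 108 against 17.5 and Ifitm1 at 189 against 4.99 CPM. Car1, a carbonic anhydrase of the erythroid lineage and the sixth marker given for the group, was at 351 CPM (309 to 397) in Pf4-low and 29.9 CPM (15.5 to 52.3) in Pf4-high cells. Car1 was found in 14 of the 30 Pf4-low and 3 of the 18 Pf4-high cells. The 394 cells of the cluster with fewer than 2 rule genes had 443 CPM (424 to 464) of it. Car1 therefore did not lie with the platelet genes, and it was not particular to the Pf4-low members. Some progenitor genes were shared: Angpt1 was at 414 and 271 CPM and Muc13 at 127 and 99.2 CPM in Pf4-high and Pf4-low cells. By cell, Angpt1 was found in 9 of 18 (median 19.1 CPM) and 22 of 30 (median 59.7 CPM). Muc13 was found in 7 of 18 and 16 of 30. The stem and progenitor list as a whole came to 2650.4 CPM in Pf4-high and 2378 CPM in Pf4-low cells. Outside the members it was at 1557 CPM in all cells, 3088 CPM in endothelial-like and 2610 CPM in fibroblast-like cells. As a whole, the list was thus not particular to the Pf4-low cells. All 30 Pf4-low cells held Ctla2a, at 1886 CPM (1787 to 1989), against 1214 CPM (1109 to 1327) in Pf4-high cells, of which 14 held it.

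Depth divided the Pf4-high cells again. In 10 cells the total was 1229 to 5824 UMIs, with 585 to 2195 genes, and in 8 it was 12903 to 92359 UMIs, with 2405 to 8090 genes. The mark at 6000 UMIs was set after the values were seen. Mitochondrial UMIs were 0 to 1.88% in the shallow cells and 0.814 to 6.41% in the deep ones. Per 1000000 UMIs, the shallow cells had more Ppbp (4035 CPM (3290.3 to 4899) against 351 CPM (294 to 417)) and more Rasgrp2 (1543 CPM (1097 to 2109) against 474 CPM). A single shallow cell of 3534 UMIs held 63 of the 102 Ppbp UMIs and 19 of the 39 Rasgrp2 UMIs, and without it the shallow cells had 1794 CPM (1275 to 2452) of Ppbp and 919.8 CPM (562 to 1421) of Rasgrp2. The same cell held 32 of the 37 Gp9 and 32 of the 35 Clec1b UMIs. With it, Gp9 was at 1464 CPM in shallow and 229 CPM in deep cells, and without it at 230.0 CPM (74.7 to 537) in shallow cells. Clec1b was at 1385 CPM with it and 138 CPM (28.5 to 403) without it, against 154 CPM in deep cells, so that no difference in either gene was detectable without this cell. The deep cells had more of the transcription factors, 8018 CPM (7734 to 8309) against 3284 CPM (2615 to 4071), among them Meis1 (679 against 158 CPM). Cell cycle genes were at 2229.9 CPM in deep and 1068 CPM in shallow cells. What set the depth of a barcode was not tested.

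Shares of cells at equal depth are given as a description, since the rule genes chose the members and Pf4 set the groups. After thinning to 2000 UMIs, Pf4 was found in 100% (75.3 to 100) of 13 Pf4-high cells, 17.2% (5.85 to 35.8) of 29 Pf4-low cells and 5.88% (0.720 to 19.7) of 34 endothelial-like members. Chondrocyte-like cells, which should lack Pf4, had it in 0.519% (0.209 to 1.07) at that depth. Gp9 was found in 46.2% (19.2 to 74.9) of Pf4-high and 3.45% (0.0873 to 17.8) of Pf4-low cells. Ctla2a was found in 76.9% (46.2 to 94.96) of Pf4-high cells, 75.9% (56.5 to 89.7) of Pf4-low cells, 64.7% (46.5 to 80.3) of endothelial-like members and 45.1% (37.9 to 52.4) of endothelial-like cells that were not members. Left out as too shallow were 5 Pf4-high cells and 1 Pf4-low cell. Unthinned, Pf4 was present in 40% of Pf4-low and 64.7% of endothelial-like members.

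**Figure D4:**
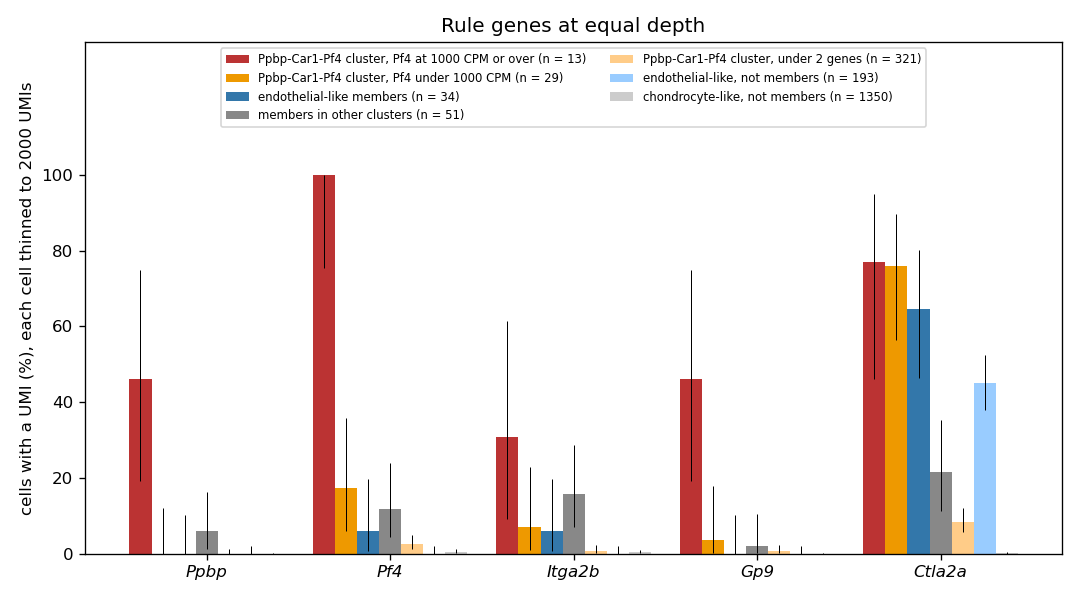
Share of cells with at least 1 UMI of each rule gene (y axis, %) after each cell was thinned to 2000 UMIs, with 95% exact binomial intervals, for 4 groups of members and 3 groups of other cells. Pf4 is found in 100% of the 13 Pf4-high cells and in 17.2% or fewer of the other members, while Ctla2a is found in 45.1% of endothelial-like cells that are not members.

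Against the cells outside both the members and the cluster, the 48 members of the Ppbp-Car1-Pf4 cluster were compared as ratios of CPM. To be called, a gene needed 20 or more UMIs over both sides, a ratio of 2 or more or of 0.5 or less, an interval that left out 1, and agreement in direction between the barcode sets. Of 20871 genes tested, 12.1% were called higher and 15.4% lower, and the median log2 ratio was 0.35. Beside this background, the receptor list had 17 genes called higher and 3 lower of 27 (median log2 ratio 3.23), and the transcription factor list 20 higher and 0 lower of 22 (2.62). Stem and progenitor genes gave 15 higher and 4 lower of 22 (2.80), granule biogenesis genes 10 and 0 of 20 (1.79), signalling genes 16 and 0 of 29 (1.07), and cytoskeletal genes 12 and 5 of 24 (1.05). Granule cargo was split, with 6 higher and 6 lower of 18, and its median (0.16) lay below that of all genes. The same contrast chose the members, so these counts describe them only.

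By ratio, the leading receptors were Treml1 at 1353 (770.4 to 2562), F2rl2 at 681 (441 to 1084) and Clec1b at 406 (280.1 to 597). A cell of the cluster left out by the rule, with 217827 UMIs, was on neither side of this comparison. It held 69.8% of the Treml1, 55.5% of the Clec1b and 5.45% of the Vwf UMIs in all cells that passed the filters. The ratios of Treml1 and Clec1b therefore depend on leaving that cell out. Slc35d3 was at 261 (168 to 409) and Lat at 93.8 (72.6 to 121). Vwf was at 58.7 (48.6 to 70.5), with 37.9% of its UMIs from 1 cell. Of the same comparison, F2rl2 was at 483 in set 1 and 1152 in set 2, Vwf at 77.7 in set 1 and 26.5 in set 2 and Serpina3b, below, at 2358 in set 1 and 7275 in set 2. Genes called lower in these lists included coagulation factor XIII (F13a1, ratio 0.0116), Cd36 (0.00910) and the matrix protein Sparc (0.00508). Outside the lists, the serpin genes Serpina3b (192 CPM in Pf4-high cells, 0 UMIs in Pf4-low) and Serpina3g (775 and 127 CPM) stood high. Serpina3b had 77 UMIs in 8 of the 48 members and 4 in the comparison cells, a ratio of 3574 (1341 to 13449.6). These serpins belong to a family of near-identical copies on chromosome 12, so the counting could split reads among them. The potassium channel gene Kcnj5 was at 74.8 CPM in 7 Pf4-high cells and 0 UMIs in Pf4-low cells. Mrvi1, a substrate of the cGMP-dependent kinase, was at 516 CPM in 12 Pf4-high cells and 1.40 CPM in 1 Pf4-low cell. Lowest were genes of cartilage and connective tissue at 0 UMIs, with Igf1 at least 120-fold lower and Hapln1 at least 103-fold lower against a floor of 3 counts for the group.

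Proliferation and handling genes were looked at beside these. The cell cycle list had 12 genes called higher and 0 lower of 28 (median log2 ratio 0.82), led by the replication genes Mcm2 (ratio 6.45, 4.74 in set 1 and 9.06 in set 2) and Mcm5 (5.92). In Pf4-low cells, 51.4% of the Mcm2 UMIs came from 1 cell. The list summed to 2414 CPM in the cluster's members and 2199 CPM in the cluster's cells with fewer than 2 rule genes. Outside the members it was at 1325 CPM in all cells and 6522 CPM in erythroid-like cells, so it was not particular to the cluster's members. Mki67 was at 189 CPM in Pf4-high, 250.1 in Pf4-low and 189 CPM in other cells. Dissociation and early response genes summed to 5371 CPM (5146 to 5602) in Pf4-high and 11314 CPM (11069 to 11563) in Pf4-low cells, and their part in the differences was not tested.

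Markers of other cell types were found in the Pf4-high cells to varying extents. Mast cell markers summed to 92.3 CPM with 4 of 11 genes found, and Cpa3, Cma1, Tpsb2 and Tpsab1 were at 0, against 332 CPM in cells outside the members. Macrophage markers summed to 47.4 CPM with 3 of 11 found, against 1410.2 CPM. Granulocyte progenitor markers were at 593 CPM with 4 of 8 found, against 756 CPM of cells outside the members, and Elane and Ctsg were at 0. Calr gave nearly all of this sum. It was found in 14 of the 18 cells, with a median of 419 CPM by cell. The other 3 genes found, Mpo, Ms4a3 and Prtn3, were in 1, 1 and 4 cells, with at most 2 UMIs in any cell. Macrophage-like cells outside the members also made Pf4, at 5196 CPM (5099 to 5293). Endothelial markers summed to 384 CPM in Pf4-high and 295 in Pf4-low cells, against 267 CPM in cells outside the members, with Cdh5 at 2.49 and 1.40 CPM. Erythroid markers, mostly globins, reached 18602 CPM in the Pf4-high cells of set 1 and 685 CPM in those of set 2, and 31975 and 1496 CPM in Pf4-low cells. A few cells gave most of this. In set 1, 3 of the 12 Pf4-high and 3 of the 18 Pf4-low cells held at least 100 UMIs of Hbb-bs (adult beta-globin), up to 1495 and 5989, while the others held at most 40 and 39. In set 2 the highest counts were 26 and 23. Without these cells, the erythroid markers of set 1 were at 2096 CPM (1802 to 2423) in Pf4-high and 2344 CPM (2179.7 to 2518) in Pf4-low cells. The source of the globin RNA was not tested.

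On endothelial genes, the 34 endothelial-like members were close to the other cells of their cluster. The endothelial list summed to 6722 CPM (6605 to 6840.2) in them and 6129 CPM (6059 to 6199) in the 209 other endothelial-like cells. VE-cadherin (Cdh5) was at 1131 CPM (1084 to 1180.5) and 1034 CPM (1006 to 1063), Pecam1 at 863 and 736, and claudin 5 (Cldn5) at 816 and 915 CPM. The megakaryocyte genes outside the rule were no higher in the members, at 268 CPM (245 to 292) against 336 CPM (320.0 to 353). Of the 502 UMIs of the list in these members, 218 were Thbs1, 176 Selp (P-selectin) and 84 Vwf. Thbs1 was at 116 CPM in members and 154 CPM in the others, Selp at 93.96 and 137 CPM and Vwf at 44.8 and 29.7 CPM. In 1 member there were 99 of the Selp UMIs, and without it Selp was at 42.3 CPM. Gp9 had 0 UMIs in these members. All 34 had Ctla2a, at 799 CPM (759 to 840.2) against 602 CPM (581 to 625) in the others, and Pf4 was at 26.7 CPM. The members were deeper, with a median of 36659.5 UMIs against 11257. Some of these members also held Rgs5, a pericyte marker, with up to 564 UMIs in 1 cell. Pericyte markers are not compared here between the members and the others.

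Of the 52 members elsewhere, 10 lay in unnamed clusters and 42 in named ones. Values are given for the 22 that were mast-like, granulocyte progenitor-like or erythroid-like. The 7 mast-like members had Cma1, a mast cell chymase, at 19906 CPM (19035 to 20806) against 18409.9 CPM (18112 to 18712) in other mast-like cells. All 7 had Ctla2a, 6 had Itga2b and none had Gp9 or Ppbp. Other mast-like cells had Ctla2a too, at 618 CPM. The 8 granulocyte progenitor-like members had myeloperoxidase (Mpo) at 3799 CPM (3592 to 4016) against 1177 CPM (1156 to 1199) in the rest of that cluster, and Kit at 91.2 against 24.3 CPM. Their megakaryocyte markers outside the rule summed to 36.5 CPM. The 7 erythroid-like members had adult beta-globin (Hbb-bs) at 184427 CPM against 228696 CPM, and 6 of them held a single UMI, or 2, of each admitting gene. Across all 134 members, 13 of 13 endothelial and 11 of 11 mast cell markers were called higher than in other cells, where 10.2% of 20962 genes were called higher and 10.5% lower. Without the endothelial-like members, the ratio of Cdh5 was 0.0913.

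Members just inside the rule differed from those far inside. The megakaryocyte markers outside the rule summed to 268 CPM (250 to 286) in members with 2 rule genes, 193 CPM (151 to 243) with 3, 864 CPM (719 to 1030) with 4 and 3423 CPM (3237 to 3618) with all 5. Members with 2 or 3 rule genes thus lay below the 678 CPM of cells outside the members. Without Thbs1 the levels were 126, 153, 733 and 3064 CPM, against 91.1 CPM. Just outside, 955 cells had 1 rule gene, and 185 cells with at least 2 were left out for a UMI of an excluded gene. Among these, 1 cell of the Ppbp-Car1-Pf4 cluster in set 1 stood apart. It had 217827 UMIs, 10341 genes and 2 UMIs of Pdgfra, and its 12246 Pf4 UMIs and 2159 Ppbp UMIs were 21.3% and 81.5% of those in all cells that passed the filters. Its megakaryocyte markers outside the rule summed to 7607 CPM. The ratio of Ppbp in all members against other cells was 5.75 (5.05 to 6.54) with this cell among the comparison cells and 60.7 without it.

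High counts raise the question of doublets. The doublet caller Scrublet marked only 3 cells (0.0419%) of set 1 and 1 cell (0.0125%) of set 2. How well it worked here was not tested, so its calls were not relied on and no cell was removed. Among the 779 cells in the top 5% of its scores in each set were 36 members: 16 of the Ppbp-Car1-Pf4 cluster, 11 endothelial-like and 9 elsewhere. Of the 10 members with all 5 rule genes, 6 were among them. Doublets were not told apart from large cells. Col12a1 itself was low in the members of the Ppbp-Car1-Pf4 cluster, at 17.5 CPM in Pf4-high and 4.19 CPM in Pf4-low cells, against 156 CPM in cells outside the members.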

How the data were processed

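Knee joint cells were profiled with 10x 3' chemistry version 3. The authors deposited 1 merged matrix of raw UMI counts (32285 genes, 24203 barcodes), which per the submitters' processing notes came from Cell Ranger 7.0.0 and mm10. The setting for intronic reads is not named in those notes or in the labels. Of the gene IDs, 32235 were found in GENCODE M21.

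Cells were filtered as the rule states. Counts scaled to 10000 per cell were log-transformed, and 2000 variable genes, 30 components, 15 neighbours and Leiden clustering at resolution 1, seed 1 (scanpy 1.11.5, leidenalg 0.10.2) gave the clusters. Rule genes, sex-linked genes (Xist and the Y chromosome's) and genes of mitochondria and ribosomal proteins were left out. A cluster was named for the marker list with the highest median log2 fold if that was at least 1 and 3 or more markers reached that fold (10 CPM added to each side) while present in 10% or more of the cells. It stayed unnamed where another list had more genes among its 10 leading genes. This rule was made after clusters had been seen.

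CPM are UMIs summed over a group per 1000000. Poisson, Clopper-Pearson and conditional binomial intervals are exact (scipy 1.17.1). The ratio code was tested on simulated data. Named genes are the marker and excluded genes, the 4 highest ratios and 2 highest levels of each list, the 15 highest and 5 lowest ratios outside the lists, and Col12a1. Other list genes named for their role in platelets, and cells singled out, were chosen after their values were seen. The members and lists were chosen with earlier results of these data known. Some genes of the lists are not reported by name here, though sums and counts over the lists include them. Wild type was not compared with knockout.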

Additional observations from a re-analysis of the deposited data

Results flagged for a closer look

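Barcodes that failed the cell filters, and entered no comparison, also held the rule genes. Of 9029 such barcodes, 31 had at least 2 of the 5 genes with C1qa, Cd79a and Pdgfra at 0. Their share was 0.343% (95% exact binomial interval 0.233 to 0.487), against 0.883% of the cells that passed the filters. They were flagged because the share passed 0.0332%, that of 3 barcodes. This floor holds no rate expected by chance, so passing it tests nothing. The rule genes chose these barcodes, so their Pf4 and Ppbp levels are descriptions only. Of the 31, 22 had under 500 genes, 10 had under 1000 UMIs and 18 had over 10% mitochondrial UMIs, and 12 held at least 3 of the genes. Their summed Pf4 was 997 CPM (858 to 1151), with 0 to 67 UMIs per barcode, Ppbp was 286 CPM (214 to 374) and Clec1b was 59.3 CPM (29.6 to 106). The globin gene Hbb-bs made up 107153 CPM of the same barcodes. The source of these molecules was not tested.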

How the results depend on the processing

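Of 51 alternatives to the main counts and levels, 40 stayed within 1.5 times or within the interval, and 11 moved. The rule took 134 members as given, 32 with at least 3 genes, 61 without Ctla2a, 319 with the excluded genes not required to be 0 and 31 after thinning. Other filters gave 98 to 144. The share of members in the Ppbp-Car1-Pf4 cluster was 35.8% and fell to 26.1% at resolution 2. With the ratio limits at 4 and 0.25, 765 genes were called higher and 1259 lower in members, against 2128 and 2191, and 815 were called higher in the members of the cluster, against 2526. With means over cells in place of sums, 5638 genes were called lower in members and 9781 in the cluster's members, against 3215. The megakaryocyte markers outside the rule in the 16 cluster members with 4 or 5 genes were 2911 CPM, or 3170 CPM as a mean over cells. Leaving out barcode set 1 or 2 gave 1996 and 2317 genes called higher and 1843 and 2063 lower in members, and 2346 and 2618 higher and 2629 and 2724 lower in the cluster's members.

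Of 306 gene ratios recomputed, 7 crossed 1 for a gene called in the main comparison. Of the other 299, 140 lay within the main interval and 159 outside it. A gene not called in the main comparison could not count as reversed. Alternatives that changed only the UMI minimum or the ratio limits could not move a ratio, and they are among the 306. In members, Cpa3 fell to 0.405 with at least 3 genes and 0.270 without Ctla2a, and Prg2 to 0.297 and 0.184. Cdh5 fell to 0.0913 without the endothelial-like members, an alternative chosen after seeing the data. Against blood clusters only, the ratios of Cd34 and Cdh5 in the cluster's members were 4.67 and 2.66. The cause was not tested where the alternative's own construction does not show it. No paired analysis was possible because the matrix holds 1 sample and no label ties barcodes to a replicate. Levels without Thbs1, without the shallow cell with most Ppbp, without the globin-rich cells and without the endothelial-like member with most Selp were added after seeing the data and stand beside their results. Depth limits what single cells show: 5 of the 18 Pf4-high cells had under 2000 UMIs.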
